A study of Mus musculus with 4 samples.

Results

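The STAT and IRF transcription factors described here are 9 mouse genes, Stat2, Stat3, Irf1, Irf2, Irf3, Irf5, Irf7, Irf8 and Irf9, taken by gene symbol from 2 deposited tables that together list 19175 gene IDs. All 9 are listed in the table of the virus experiment, and 3 of the 9 (Stat3, Irf1 and Irf3) in the table of the stress experiment. RNA was sequenced from the prelimbic cortex, an area of the medial prefrontal cortex, of C57BL/6 mice aged 8 weeks, with 1 library in each of 4 groups. The AAV-CDYL mice overexpressed CDYL, a chromatin corepressor, from an adeno-associated virus, and their reference, the AAV-GFP mice, carried a virus for green fluorescent protein. The susceptible mice had been through chronic social defeat stress and were classed as stress-susceptible. Their reference, the control mice, has a control phenotype but carries the same stress entry in the labels, so what these mice went through is not clear. The labels state neither the promoter of the viruses, nor the cells they reached, nor whether a library was 1 mouse or a pool. Cdyl stood at 1052 FPKM with AAV-CDYL and 2.68 FPKM with AAV-GFP.

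STAT proteins wait in the cytoplasm until Janus kinases at a cytokine receptor phosphorylate them, then pair and enter the nucleus. Type I interferon assembles the complex ISGF3, which holds STAT2 and IRF9 and binds the interferon-stimulated response element (ISRE), while interferon-gamma and cytokines that signal through gp130 drive STAT dimers to the gamma-activated site (GAS). IRF proteins share a DNA-binding domain that reads GAAA repeats: IRF3 and IRF7 switch on interferon genes when nucleic acid sensors fire, IRF1 and IRF2 act as activator and repressor at shared sites, and IRF5 and IRF8 serve macrophages, microglia and other leukocytes. Several of these genes are themselves induced by interferon, so the family feeds back on itself.

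Since both elements are where STAT and IRF proteins bind, the promoters of the family were searched for them, and the 4 windows with a match are printed. RefSeq (GRCm38.p6, the mm10 assembly) gave 12 promoter windows for the 9 genes, each from 250 bases before to 50 bases after a transcription start. The ISRE was searched as GAAA, any 2 bases and GAAA again, and the GAS as TTCNNNGAA, each on both strands with no overlap between their matches in these windows, and the match is in capitals. The windows lie at chr11:53769764-53770063 (Irf1), chr8:120736108-120736407 (Irf8), chr10:128270248-128270547 (Stat2) and chr8:46739495-46739794 (Irf2), all on the plus strand.
Irf1: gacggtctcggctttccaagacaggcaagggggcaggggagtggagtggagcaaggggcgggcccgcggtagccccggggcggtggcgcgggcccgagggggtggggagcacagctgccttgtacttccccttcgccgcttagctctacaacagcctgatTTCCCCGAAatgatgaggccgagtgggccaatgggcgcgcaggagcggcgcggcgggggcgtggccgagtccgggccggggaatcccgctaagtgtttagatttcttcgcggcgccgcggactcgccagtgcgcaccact
Irf8: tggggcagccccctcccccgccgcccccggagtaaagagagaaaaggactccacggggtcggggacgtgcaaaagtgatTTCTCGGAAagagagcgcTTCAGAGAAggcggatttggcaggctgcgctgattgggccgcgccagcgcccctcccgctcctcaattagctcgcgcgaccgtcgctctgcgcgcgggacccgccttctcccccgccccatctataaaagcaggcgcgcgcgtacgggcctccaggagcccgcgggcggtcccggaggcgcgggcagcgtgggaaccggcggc
Stat2: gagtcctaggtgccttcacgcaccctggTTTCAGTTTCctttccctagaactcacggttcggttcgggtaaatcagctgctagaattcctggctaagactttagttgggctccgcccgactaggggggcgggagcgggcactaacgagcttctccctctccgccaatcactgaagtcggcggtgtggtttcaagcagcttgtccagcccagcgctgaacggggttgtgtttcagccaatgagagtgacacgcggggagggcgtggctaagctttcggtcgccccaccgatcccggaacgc
Irf2: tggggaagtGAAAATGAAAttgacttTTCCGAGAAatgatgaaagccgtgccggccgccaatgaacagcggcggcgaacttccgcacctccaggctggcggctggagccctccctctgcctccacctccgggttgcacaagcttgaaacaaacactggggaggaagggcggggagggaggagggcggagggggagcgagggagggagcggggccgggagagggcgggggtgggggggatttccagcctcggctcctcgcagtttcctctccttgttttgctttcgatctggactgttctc
In the Irf1 window the GAS, TTCCCCGAA, began 90 bases before the start. The Irf8 window held 2 GAS matches, TTCTCGGAA at 171 and TTCAGAGAA at 153 bases before the start. In the Stat2 window the ISRE read in the reverse direction, TTTCAGTTTC, at 222 bases before the start. The Irf2 window held both elements, the ISRE GAAAATGAAA at 241 and the GAS TTCCGAGAA at 224 bases before the start. No match to these letters lay in the other 8 windows, which include those of Irf7, Irf9, Irf5, Irf3 and Stat3. Over all 32851 RefSeq windows, 3.44% held the ISRE and 8.30% the GAS, or 3.99% and 9.55% of the 27025 genes with a window. By gene, the ISRE was found for 2 of the 9 family members, 10 of 17 ISGF3 target genes with a window, 9 of 16 targets of IRF1 and interferon-gamma, 0 of 18 STAT3 targets and 0 of 11 neuron markers. The GAS was found for 3 of the 9 members, 5 of 17 ISGF3 targets, 5 of 16 targets of IRF1 and interferon-gamma, 6 of 18 STAT3 targets and 0 of 11 neuron markers. A match describes the letters and is not a measured binding site.

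**Figure D1:**
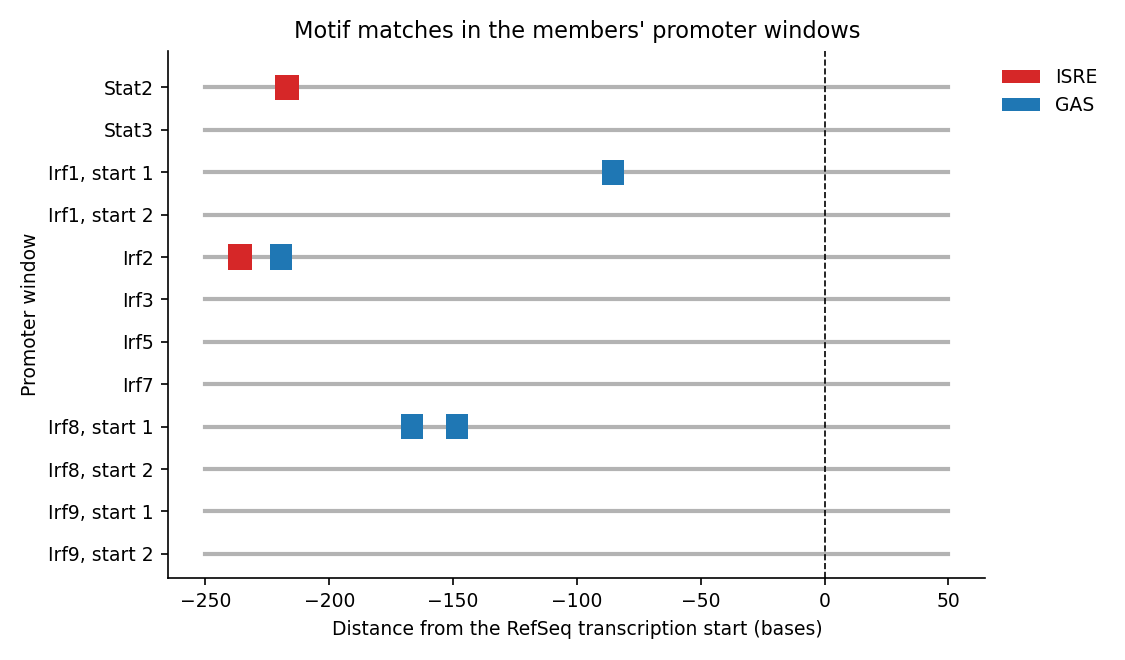
Map of the 12 RefSeq promoter windows of the 9 genes; the x axis is the distance from the transcription start in bases, red boxes are ISRE matches and blue boxes GAS matches. Matches lie in 4 windows, those of Stat2, Irf1, Irf2 and Irf8, all between 241 and 90 bases before the start.

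All levels are FPKM as the authors deposited them, that is fragments divided by transcript length and by library size, and each table was scaled on its own. The depth behind each library, estimated from how finely low values are stepped, was 23900000 fragments for AAV-CDYL, 22600000 for AAV-GFP, 23200000 for susceptible and 14200000 for control. The size rule for a call, in either direction, was a 1.5-fold difference of FPKM + 1 (0.58 on the log2 scale) in a gene that reached 1 FPKM in either library, here named the floor. With 1 library per group there was no test and no replicate error, so the calls and the 95% intervals below, which cover counting error only, compare these libraries and not the conditions. In neither table was a gene with values above 0 in both libraries closer than 1.25-fold, so a gene that is not listed has no value here and is not shown to be alike. Whole tissue was sequenced, and fewer cells of a type cannot be told apart from less RNA per cell.

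Every member stood higher in the AAV-CDYL library than in the AAV-GFP library, and 7 of the 9 were called higher: Irf7, Irf9, Irf8, Irf1, Stat2, Irf5 and Stat3. None was called lower. Over all genes at 1 FPKM or more in either library, 31.3% were called higher and 14.4% lower. That is 2516 genes higher and 1159 lower; relative to the median of these genes, 0.30, the split was 1630 higher and 3572 lower, and the same number of members, 7, was called higher. Irf7 entered only through its AAV-CDYL level. The other 8 all reached 1 FPKM with AAV-GFP, and 6 of them were called higher, against 21.2% of all genes at that level, and their median difference was 1.80 on the log2(FPKM + 1) scale, against -0.32 over those genes. The 2 members that were not called, Irf2 and Irf3, were among the 3 most abundant with AAV-GFP. The authors' deposited table gives 5 of the 9 a p under 0.05 (Stat2, Irf1, Irf7, Irf9 and Stat3), beside 5.16% of all listed genes in the same direction, and none a q under 0.05, the lowest being 0.0833 for Stat2. That share is over all 15396 listed genes, including those under the floor, whereas all 9 members reached it.

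**Figure D2:**
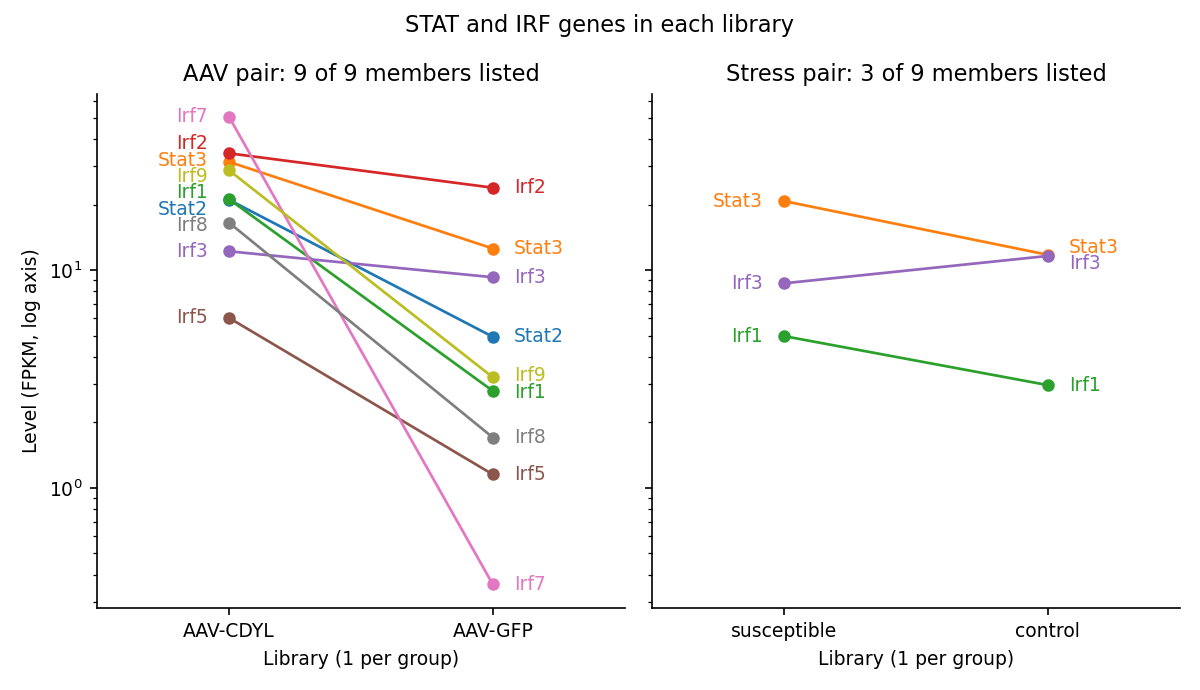
Level of each listed gene in each library, in FPKM on a log axis; points are single libraries, joined within a pair, with 9 genes in the virus pair and 3 in the stress pair. Irf7 goes with the highest level in AAV-CDYL, 50.6 FPKM, and the lowest in AAV-GFP, 0.360 FPKM, while the lines of Irf2 and Irf3 are the flattest of the virus pair.

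Of the ISGF3 subunits, Stat2 (ENSMUSG00000040033, chromosome 10, 128270576 to 128292849) stood at 21.04 FPKM with AAV-CDYL and 4.94 FPKM with AAV-GFP. The ratio was 4.26, with a counting interval of 3.86 to 4.71 from about 2212 and 491 fragments. Irf9 (ENSMUSG00000002325, chromosome 14, 55603571 to 55610030), the DNA-binding subunit of the complex, stood at 28.7 FPKM with AAV-CDYL and 3.22 FPKM with AAV-GFP, a ratio of 8.92 (7.76 to 10.3). Irf9 thus stood above Stat2 with AAV-CDYL and below it with AAV-GFP. All 24 listed target genes of ISGF3 were called higher, with a median difference of 3.19, against 0.30 over all genes at the floor. The 10 that reached 1 FPKM with AAV-GFP were all among these (median 3.92). The difference of Stat2, 1.89, was smaller than that of 23 of the 24 targets, and that of Irf9, 2.82, smaller than that of 16.

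Irf7 and Irf3, both activated by nucleic acid sensors, stood at opposite ends of the family. Irf7 (ENSMUSG00000025498, chromosome 7, 141262706 to 141266481), the interferon-inducible member of this pair, stood at 50.6 FPKM with AAV-CDYL and 0.360 FPKM with AAV-GFP. Its ratio was 140.4, with a counting interval of 89.7 to 240.1 that rests on about 18 fragments in the AAV-GFP library and 2704 in the AAV-CDYL library. On the log2(FPKM + 1) scale the difference was 5.24, place 56 among 8047 genes, and only 2 of the 24 ISGF3 targets (Oasl2 and Isg15, an antiviral synthetase-like protein and a ubiquitin-like modifier) had a larger one. Irf3 (ENSMUSG00000003184, chromosome 7, 44997648 to 45002848), which is made constitutively and held inactive until phosphorylated, stood at 12.2 FPKM with AAV-CDYL and 9.28 FPKM with AAV-GFP. Its ratio of 1.32 (1.16 to 1.49) was the smallest of the family and was not called.

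Irf1 and Irf2, the activator and the repressor that compete for the same elements, also parted. Irf1 (ENSMUSG00000018899, chromosome 11, 53770014 to 53778374) stood at 21.2 FPKM with AAV-CDYL and 2.79 FPKM with AAV-GFP, a ratio of 7.60 (6.33 to 9.13). Irf2 (ENSMUSG00000031627, chromosome 8, 46739732 to 46847458) stood at 34.4 FPKM with AAV-CDYL and 23.9 FPKM with AAV-GFP, a ratio of 1.44 (1.34 to 1.54) that was not called. Its promoter window above held both elements. Irf2 stood above Irf1 in both libraries, but by less with AAV-CDYL. All 21 listed targets of IRF1 and interferon-gamma were called higher (median 3.83), including the 9 that reached 1 FPKM with AAV-GFP (median 4.14). Among them were the guanylate-binding protein gene Gbp2 at 35.9 FPKM with AAV-CDYL and 0.547 FPKM with AAV-GFP, and the immunoproteasome subunit gene Psmb8 at 63.5 and 1.37 FPKM in the same order. Irf1 itself, at 2.55, had a smaller difference than 17 of the 21.

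Irf8 and Irf5 are the members best known from myeloid cells. Irf8 (ENSMUSG00000041515, chromosome 8, 120736358 to 120756694), needed for macrophage and microglial identity, stood at 16.5 FPKM with AAV-CDYL and 1.70 FPKM with AAV-GFP, a ratio of 9.69 (7.94 to 11.9). Cuffdiff placed it in a locus with 65 listed genes. Irf5 (ENSMUSG00000029771, chromosome 6, 29526625 to 29541871), which drives inflammatory cytokine genes downstream of Toll-like receptors, stood at 6.03 FPKM with AAV-CDYL and 1.15 FPKM with AAV-GFP, a ratio of 5.23 (3.97 to 7.09). Of its exonic bases 14.1% also lie in Tnpo3 on the opposite strand, and the library kit does not mark strand. Microglia and macrophage markers also stood higher: 18 of 20 were called higher and 0 lower (median 1.92), their summed level was 2090 FPKM with AAV-CDYL and 291 FPKM with AAV-GFP, and none was listed at 0. Their ratios ran from 1.27 for P2ry12 to 13.4 for Ctss. The 2 not called were P2ry12 and Gpr34, the latter with a ratio of 1.54. The difference of Irf8, 2.70, was smaller than that of 8 of the 20 markers and that of Irf5, 1.71, smaller than that of 12. Leukocyte markers summed to 143 FPKM with AAV-CDYL and 3.23 FPKM with AAV-GFP. The immunoglobulin joining chain gene Jchain made up 77.6 FPKM of the AAV-CDYL sum and 0.183 FPKM of the AAV-GFP sum. With AAV-GFP the T- and B-cell genes Cd3d, Cd3g, Cd8a, Cd8b1 and Cd79a were listed at 0. Others were low but above 0 there: Cd4 at 0.377, Ms4a1 at 0.0584, Cd79b at 0.0444 and Cd3e at 0.0352 FPKM. All 17 leukocyte markers that reached 1 FPKM were higher, each through its AAV-CDYL level alone. The part of these cells in the levels of Irf8, Irf5 and the other members was not tested.

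Stat3 (ENSMUSG00000004040, chromosome 11, 100885098 to 100939540), the mediator of gp130 signals and of astrocyte reactivity, stood at 31.4 FPKM with AAV-CDYL and 12.6 FPKM with AAV-GFP. The ratio of 2.50 (2.36 to 2.64) was the smallest among the 7 members called higher. STAT3 target genes were called higher for 16 of 17 at the floor (median 1.63) and lower for none, and 9 of the 10 that reached 1 FPKM with AAV-GFP were called higher (median 1.40). The acute-phase protease inhibitor gene Serpina3n stood at 84.7 FPKM with AAV-CDYL and 6.94 FPKM with AAV-GFP, and the feedback inhibitor gene Socs3 at 5.24 and 1.13 FPKM in the same order. Of the 15 astrocyte markers, which share Gfap with the target list, only 9 were listed. Of these, 7 stood higher and 1 lower by the rule (median 0.82, summed level 792 FPKM with AAV-CDYL and 261 FPKM with AAV-GFP, none listed at 0), with 3 of 9 higher under median centring. Gfap alone made up 386 FPKM of the AAV-CDYL sum and 5.85 FPKM of the AAV-GFP sum. Oligodendrocyte and myelin markers were also called higher, in 15 of 16 listed (median 1.79), and endothelial markers in 5 of 8 listed (median 0.62). The part of these cells in the level of Stat3 was not tested.

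**Figure D3:**
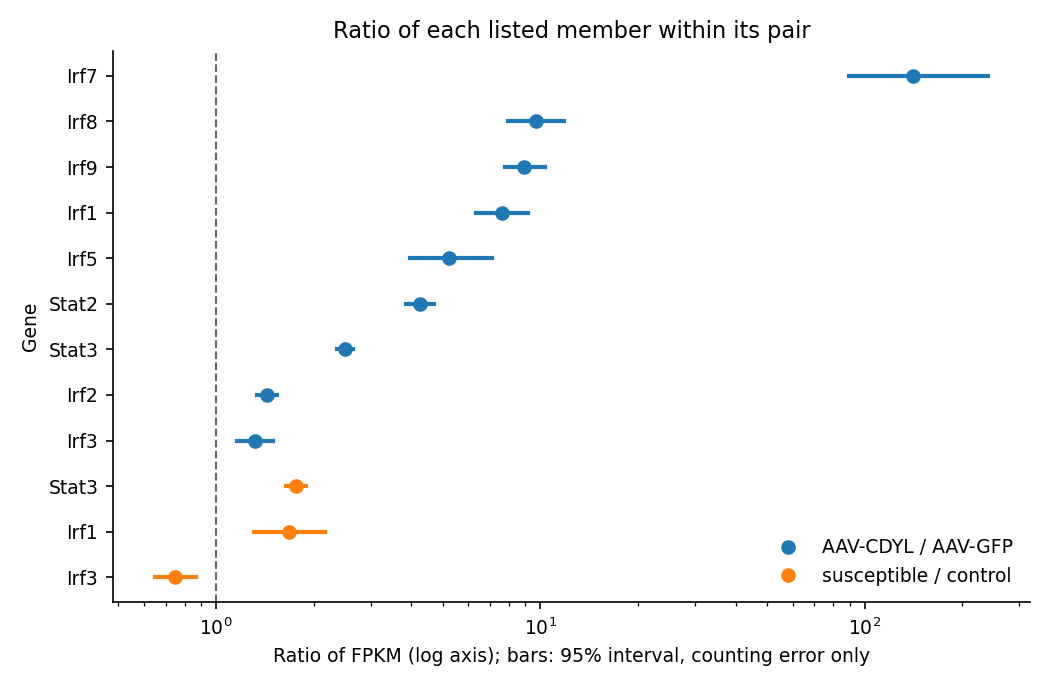
Ratio of FPKM within each pair for each listed gene, on a log axis; points are ratios of 1 library to 1 library and bars their 95% intervals for counting error. Irf7 lies at 140.4, 5 members lie between 4.26 and 9.69 and Stat3 at 2.50 in the virus pair (blue), while the stress pair (orange) lies between 0.749 and 1.76.

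The order of the levels, which FPKM allows because it is per length, differed between the libraries. With AAV-CDYL it ran Irf7, Irf2, Stat3, Irf9, Irf1, Stat2, Irf8, Irf3 and Irf5, from 50.6 down to 6.03 FPKM, with Irf1 and Stat2 nearly level at 21.2 and 21.04 FPKM. With AAV-GFP it ran Irf2, Stat3, Irf3, Stat2, Irf9, Irf1, Irf8, Irf5 and Irf7, from 23.9 down to 0.360 FPKM. The 9 levels summed to 222 FPKM with AAV-CDYL and 59.9 FPKM with AAV-GFP. Irf7 took 22.8% of that sum with AAV-CDYL and 0.601% with AAV-GFP, whereas Irf2 took 15.5% with AAV-CDYL and 39.9% with AAV-GFP. Irf3 took 5.50% with AAV-CDYL and 15.5% with AAV-GFP. Without replicates, no spread is at hand to say which neighbours in these orders differ.

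**Figure D4:**
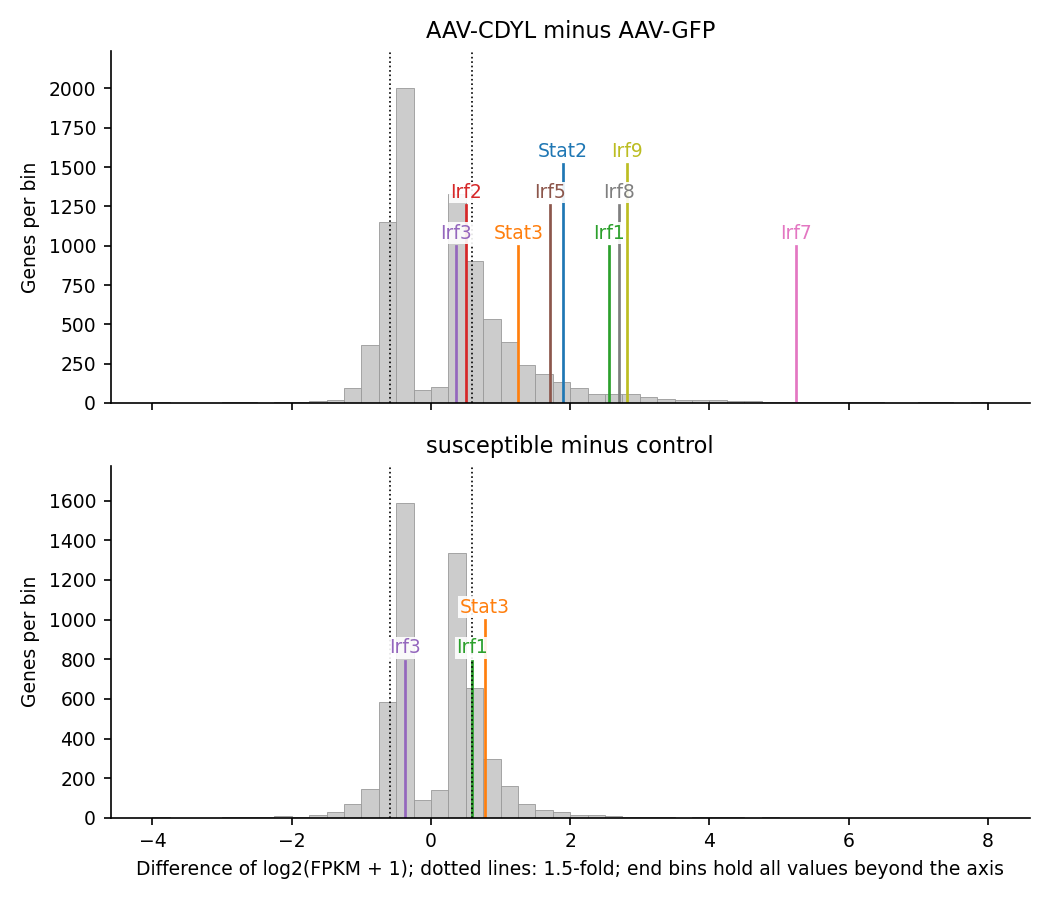
Number of genes per bin of 0.25 of the difference of log2(FPKM + 1), for genes at 1 FPKM or more in either library, with coloured lines at the listed STAT and IRF genes. In the virus pair 7 of 9 lines lie right of the dotted 1.5-fold line, and in the stress pair Stat3 at 0.77 and Irf1 at 0.59 lie just right of it.

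The rest of the pathway is given in the order of the signal. Interferon genes were low: of 11 only Ifng and Ifnb1 were listed in the virus table, at 0.534 and 0.0797 FPKM with AAV-CDYL, both listed at 0 with AAV-GFP and both under the floor. Of the interferon receptor genes, 3 of 3 at the floor were called higher, such as Ifngr1 at 14.8 FPKM with AAV-CDYL and 5.27 FPKM with AAV-GFP. Only 2 of the 4 Janus kinase genes were listed, as Jak1 and Jak2 were not, and both were higher. Jak3 stood at 6.41 FPKM with AAV-CDYL and 1.57 FPKM with AAV-GFP. Tyk2, a kinase of the type I receptor, stood at 3.70 and 1.94 FPKM in the same order. Sensors and adaptors that activate IRF3 and IRF7 were called higher for 12 of 14 and lower for none (median 1.20). Only 7 of the 14 reached 1 FPKM with AAV-GFP, and 5 of those were called higher. The RNA helicase genes Ddx58, Ifih1 and Dhx58 had the largest differences, 2.88, 2.55 and 2.50, Ddx58 and Dhx58 passing the floor through AAV-CDYL alone. Ikbke, a kinase of IRF3 and IRF7, likewise stood at 3.53 FPKM with AAV-CDYL and 0.0744 FPKM with AAV-GFP. Of the gp130 cytokine genes, 2 of 3 at the floor were higher, and of the gp130 receptor genes 2 of 3, led by the oncostatin receptor gene Osmr at 3.54 FPKM with AAV-CDYL and 0.466 FPKM with AAV-GFP. Both cytokine genes and Osmr passed the floor only through AAV-CDYL, and of the genes that reached 1 FPKM with AAV-GFP, 0 of 1 cytokine gene and 1 of 2 receptor genes were called higher. All these counts leave out genes that were not listed. Listed were 4 of 6 interferon receptor genes, 16 of 20 sensors and adaptors and 4 of 7 gp130 receptor genes. Ifnar1, Ifngr2, Tbk1, Traf3, Traf6, Irak1, Il6st, Cntfr and Il11ra1 were not, and so have no value here.

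Inhibitors of the pathway were mixed, with 5 of the 10 listed called higher and 1 lower, out of 18 in the list. Those higher were Usp18, which removes ISG15 and blocks the type I receptor, at 22.8 FPKM with AAV-CDYL and 0.300 FPKM with AAV-GFP, the phosphatase gene Ptpn6, Trim21, Socs3 and Socs1. The one lower was Socs7, at 19.2 FPKM with AAV-CDYL and 30.6 FPKM with AAV-GFP. Only 7 inhibitors reached 1 FPKM with AAV-GFP, and of these 2 were called higher and 1 lower. Of further STAT family genes, Stat4 and Stat5a were called higher, with differences of 0.79 and 0.73. Both passed the floor only through AAV-CDYL: Stat4 stood at 1.33 FPKM there and 0.347 FPKM with AAV-GFP, and Stat5a at 1.16 and 0.302 FPKM. Among the 4 further STAT and IRF family genes that reached 1 FPKM with AAV-GFP, 1 was called higher (median 0.12). Stat6 had a difference of 0.57, just under the rule, and the IRF2-binding protein genes Irf2bp1 and Irf2bpl had -0.33 and -0.37. Neuron markers, given for the makeup of the tissue, were called lower for 9 of the 15 listed and higher for none (median -0.60). All 15 reached 1 FPKM with AAV-GFP, and the median over all genes at that level was -0.32.

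**Figure D5:**
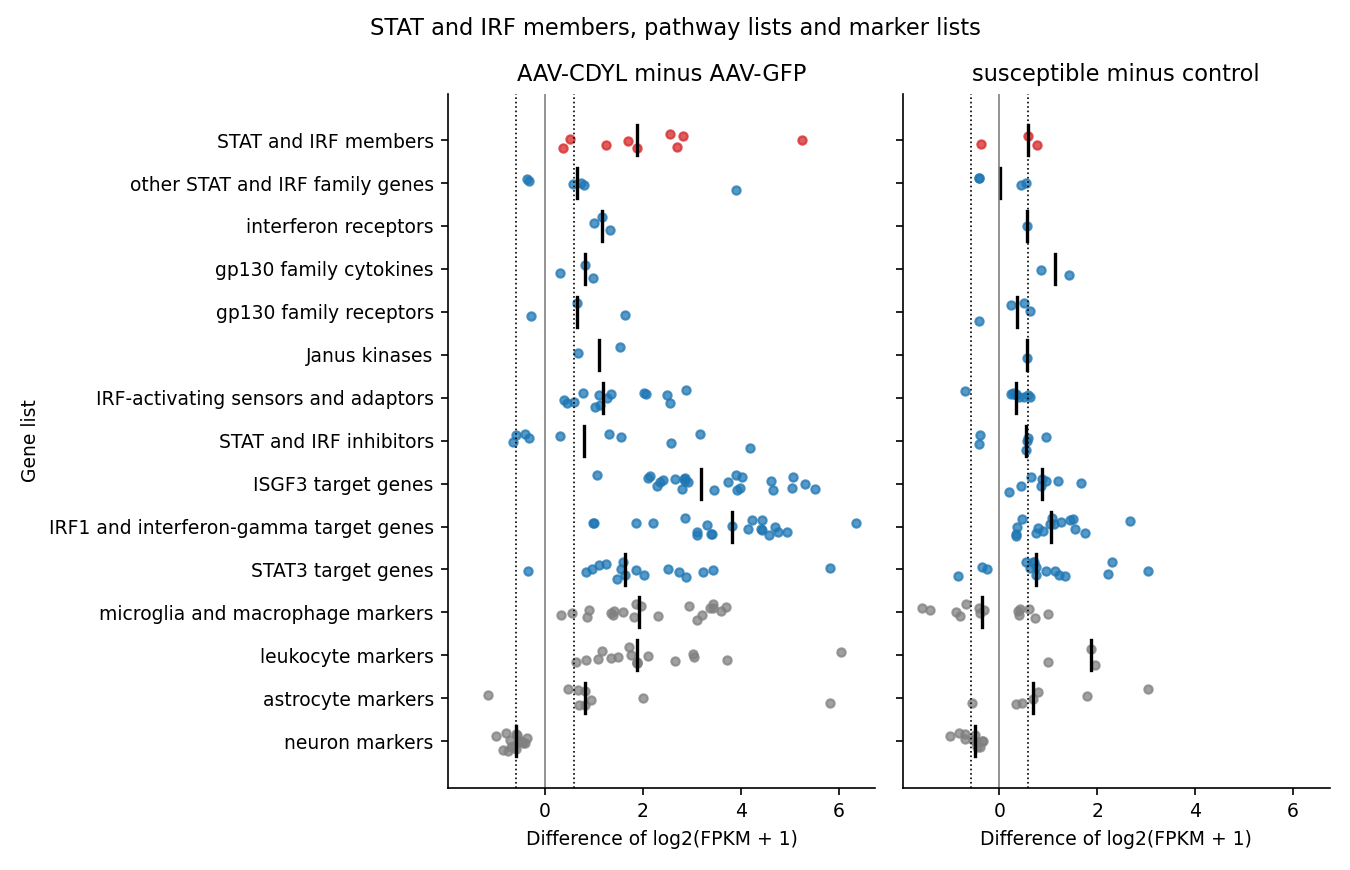
Difference of log2(FPKM + 1) for each gene at 1 FPKM or more in either library, by list; red points are the STAT and IRF members, blue points other pathway lists, grey points cell type markers, black bars medians, and dotted lines 1.5-fold. In the virus pair the medians are 1.89 for the members, 1.92 for microglia and macrophage markers, 1.88 for leukocyte markers and 1.63 for STAT3 targets. Oligodendrocyte and myelin markers, which are not drawn, have 1.79. The leukocyte median depends on the pseudocount and is 4.63 with 0.1 FPKM, as none of these markers reached 1 FPKM with AAV-GFP. The sensors have 1.20 and the ISGF3 targets 3.19.

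In the stress pair Stat3 and Irf1 stood higher in susceptible and Irf3 lower. Stat3 stood at 20.8 FPKM in susceptible and 11.8 FPKM in control, a ratio of 1.76 (1.64 to 1.90), and was called higher with a difference of 0.77. Irf1 stood at 4.98 FPKM in susceptible and 2.97 FPKM in control, a ratio of 1.68 (1.31 to 2.16), and was called higher by a narrow margin, with a difference of 0.59. Irf3 stood at 8.70 FPKM in susceptible and 11.6 FPKM in control, a ratio of 0.749 (0.647 to 0.868) with a difference of -0.38, and was not called. These 2 calls of 3 stand beside 18.9% of all genes called higher and 10.8% called lower, and beside 13.5% higher among genes that reached 1 FPKM in control, as all 3 did. In the authors' deposited table the p-values are 0.0832 for Stat3, 0.175 for Irf1 and 0.434 for Irf3, each with q = 0.999. Both calls were lost with median centring: relative to the median of all genes at the floor, 0.24, the differences were 0.52 for Stat3, 0.35 for Irf1 and -0.62 for Irf3, so that only Irf3 was called, as lower, while over all genes the split was 532 higher and 1918 lower in place of 1006 and 575. The centring itself depended on the floor. The median over all genes was -0.29 among those that reached 1 FPKM in control, as all 3 members did. It was -0.33 with a floor of 5 FPKM. Stat2, Irf2, Irf5, Irf7, Irf8 and Irf9 were not listed in this table. Of all genes at 1 FPKM or more in both virus libraries, 42.8% were listed in it.

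Target genes of the factors were listed in larger number in the stress pair. Of the targets of IRF1 and interferon-gamma, 12 of 16 at the floor were called higher and 0 lower (median 1.06, against 0.24 over all genes at the floor), but only 7 reached 1 FPKM in control, 4 of them higher. The count of 12 fell to 2 with a floor of 5 FPKM and to 4 without genes that share a locus. Irgm1, an interferon-inducible GTPase gene, stood at 11.2 FPKM in susceptible and 3.28 FPKM in control. ISGF3 targets were higher for 6 of 8 (median 0.87), with 1 of the 3 that reached 1 FPKM in control among them. The count of 6 fell to 2 under a 2-fold rule and to 0 with a floor of 5 FPKM. Of 16 STAT3 targets, 12 were called higher and 1 lower (median 0.75), with calls of higher for 7 of the 11 that reached 1 FPKM in control, such as Socs3 at 3.83 FPKM in susceptible and 1.49 FPKM in control. The count of 12 STAT3 targets depended on the setting: it was 7 under median centring (median 0.51, under the rule), 7 without shared loci, 6 under a 2-fold rule and 5 with a floor of 5 FPKM. The lower one was Junb, also an activity-induced gene of neurons, at 35.8 FPKM in susceptible and 65.1 FPKM in control. Of 14 microglia and macrophage markers, 3 stood higher and 5 lower by the rule (median -0.35, summed level 236 FPKM in susceptible and 227 FPKM in control, none listed at 0), and the median was 0.38 without genes that share a locus. All 14 reached 1 FPKM in control, and the median over all genes at that level was -0.29. Of the 15 astrocyte markers only 7 were listed. Of these, 4 stood higher and none lower by the rule (median 0.68, summed level 978 FPKM in susceptible and 581 FPKM in control, none listed at 0), with 2 higher under median centring. Oligodendrocyte and myelin markers were called higher for 11 of 15 (median 1.17, summed level 1658 FPKM in susceptible and 658 FPKM in control), endothelial markers for 8 of 11 (median 0.76) and striatal neuron markers for 6 of 7 (median 0.96), none of these lists holding a gene called lower. Only 5 of the striatal markers reached 1 FPKM in control, and 4 of those were called higher. By contrast, 4 of 11 neuron markers were called lower and 0 higher (median -0.49). All 11 reached 1 FPKM in control, so this median too stands beside -0.29 over all genes at that level. These counts cover listed genes only, which were 14 of 20 microglia and macrophage markers, 11 of 14 endothelial markers and 11 of 18 neuron markers. The part of any of these cells in the levels of Stat3, Irf1 and their targets was not tested. Leukocyte markers summed to 285 FPKM in susceptible and 74.4 FPKM in control, nearly all of it the neutrophil genes S100a8 and S100a9. Of the T-cell genes, Cd4 was called higher, at 1.25 FPKM in susceptible and 0.137 FPKM in control, passing the floor through susceptible alone. Cd8b1 stayed under the floor, at 0.0660 FPKM in susceptible and 0 in control, and Cd3d, Cd3e, Cd3g and Cd8a were not listed.

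For the 3 members that both tables list, the AAV-GFP and control libraries can be set side by side: Stat3 stood at 12.6 FPKM with AAV-GFP and 11.8 FPKM in control, Irf1 at 2.79 and 2.97 FPKM in the same order, and Irf3 at 9.28 and 11.6 FPKM, on tables that were scaled separately. Irf3 alone had differences of opposite sign, 0.36 with AAV-CDYL and -0.38 in susceptible. Among the 2753 named genes at 1 FPKM or more in either library of both tables, the genes nearest to each member in the plane of the 2 differences included Id3 and Plin3 for Stat3, at distances of 0.05 and 0.07. For Irf1 they were Trim21, Dhx58 and AF251705, at 0.05 to 0.07, and for Irf3 Atp6v1f, Serpinb6a and Plekho1, at about 0.01. This likeness rests on 2 comparisons of single libraries. For Irf1 it also depends on the log2(FPKM + 1) scale, as Trim21 and Dhx58 stood under 1 FPKM with AAV-GFP and in control. Their ratios were 12.9 and 14.4 in the virus pair and 2.22 and 2.89 in the stress pair, against 7.60 and 1.68 for Irf1.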

How the data were processed

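The authors deposited 1 table per pair of libraries, with FPKM for each library and their own p-values and q-values of 1 library against 1 library. Per the submitters' processing notes, Cuffdiff made the FPKM values on build mm10. Which aligner and gene models were used is not given in the sources used here. Trizol extraction and a NEBNext Ultra RNA kit are named per the labels. The column of the susceptible library was matched to its title although its header lacks a letter, and 0 per-sample columns were left unmapped.

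Differences of log2(FPKM + 1) were taken within a table, as AAV-CDYL minus AAV-GFP and susceptible minus control. Where 1 symbol had several gene IDs, the ID with the higher summed FPKM was used. The 9 members and 21 other gene lists were chosen with earlier results of these data known. Named genes were all members, up to 3 genes per list with the largest differences, and the 3 nearest genes to each member. Chosen after their values were seen were Gbp2, Ikbke, Irgm1, Junb, Socs1, Socs7, Irf2bp1, Ifng, Ifnb1, Gpr34 and the T- and B-cell genes. Some genes that the rule takes are not reported here. Depth came from genes with 1 transcript in GENCODE M21 of the same build, where at least 92.4% of low values lay within 0.15 of a whole step, and fragments per gene used its longest coding transcript. Intervals are exact binomial (Clopper-Pearson), at these estimated fragments. Promoters are RefSeq's. The size rule was checked on simulated data with counting error only, for 2-fold changes in genes at 5 FPKM or more. That check does not cover genes near the floor or variation between mice. Versions were scipy 1.17.1, pandas 2.3.3, numpy 2.4.6, matplotlib 3.10.9 and Python 3.11.15.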

Additional observations from a re-analysis of the deposited data

How the results depend on the processing

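Of the 97 recomputed differences of single members, 91 stayed on the same side of the size rule and none changed sign among those called. The 7 members called higher with AAV-CDYL stayed so with pseudocounts of 0.1 and 0.5 FPKM, no floor, a floor of 5 FPKM, a 2-fold rule, median centring and upper-quartile scaling, and 5 had the authors' p under 0.05. Leaving out genes that share a Cuffdiff locus left 2 of them, Stat2 and Irf7, since only those and Irf2 have a locus of their own, and by the authors' q under 0.05 there were 0. The 2 members called higher in susceptible became 1 with a floor of 5 FPKM (Stat3) and with upper-quartile scaling (Stat3), and 0 with a 2-fold rule, median centring, without shared loci, and by the authors' p or q under 0.05, while median centring gave 1 lower (Irf3). A floor of 1 FPKM in the reference library, chosen after seeing the data, left 6 called higher with AAV-CDYL. The difference of Irf7 ranged from 4.95 to 6.78 and that of Irf1 in susceptible from 0.35 to 0.73. For the gene lists, 283 of 378 counts stayed within 1.5 times and 290 of 347 medians on their side of the rule. A list median changed sign in 13 cases. In 11 of these the reported median was itself under the size rule, among them in susceptible the inhibitors at -0.40 and the sensors at -0.19 with a floor of 5 FPKM. In the other 2, both with AAV-CDYL, the further STAT and IRF genes came to -0.35 without shared loci, and the inhibitors to -0.32 with a floor in the reference library; fewer genes were left in both. No paired analysis was possible because each group has 1 library. Depth limits Irf7 most, through its few fragments with AAV-GFP.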
